A study of Ovis aries with 9 samples.

Results

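The miR-30 family is a group of microRNAs (miRNAs) that share the bases with which they recognise target messenger RNAs. Its members were taken here as every sequence whose deposited annotation named oar-mir-30 with a letter from a to e, each distinct sequence being counted once even where it carried 2 names. This found 4 names, oar-mir-30a, oar-mir-30b, oar-mir-30c and oar-mir-30d, out of 105 ovine miRNA names in the tables, and 835 distinct sequences over all libraries, of which 211 occurred in every library. The RNA came from sperm in the semen of F1 rams (Ovis aries) of wild type genotype, and all of it went through a detergent step meant to lyse somatic cells before extraction. The rams were sons of ewes given standard feeding (CON), over feeding (OVER) or restricted feeding (RES). The labels list 3 samples for each diet, 9 in all, but the 3 tables of a diet held the same sequences with the same reads. Their annotation terms differed in at most 3 rows, none of them of the family. Each diet was therefore counted as 1 library, which may be a single library or a pool. No replicate check exists for any difference, the diets could not be tested against each other, and every interval is an exact Clopper-Pearson 95% interval that covers counting error only.

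Each miRNA is cut from a hairpin precursor by the enzymes Drosha and Dicer, which leaves a strand from the 5′ arm and a strand from the 3′ arm of the hairpin. One strand is kept in an Argonaute protein and pairs with messenger RNAs mainly through its seed, bases 2 to 8 from its 5′ end, so members with the same seed can share targets. In mammals the family is known from kidney and other epithelia, where members repress genes of autophagy such as BECN1 and of epithelial to mesenchymal transition such as SNAI1. Sperm carry miRNAs made in the testis and miRNAs taken up from vesicles of the epididymis, the duct in which sperm mature.

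The letters that tell the members apart lie outside the seed, and they are printed here because the values below rest on them. The commonest bases of the 5′ arm reads gave 5 kinds of sequence, with the seed in capitals:
miR-30a 5′ arm: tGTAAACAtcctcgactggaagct
miR-30b 5′ arm: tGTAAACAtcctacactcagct
miR-30c 5′ arm: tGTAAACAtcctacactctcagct
miR-30d 5′ arm: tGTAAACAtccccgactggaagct
miR-30e 5′ arm: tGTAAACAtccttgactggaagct
Counted from 1 at the 5′ end, the d sequence differs from the a sequence by T12C alone and the e sequence by C13T alone. The b and c sequences both carry C13A and G14C and part from each other at base 19. No ovine name with the letter e occurs in the tables, and e is used here as the usual vertebrate name of those letters. The 3′ arm reads gave 3 kinds, printed with the same bases 2 to 8 in capitals:
miR-30a 3′ arm: cTTTCAGTcggatgtttgcag
miR-30d 3′ arm: cTTTCAGTcagatgtttgct
miR-30e 3′ arm: cTTTCAGTcggatgtttacag
From the a sequence of this arm the d sequence differs by G10A and A20T, and the e sequence by G18A. At most 8 family reads of a library could be placed on no arm, so among named sequences a b or c 3′ arm was all but unseen. Sequences without a family name were not searched for 3′ arm reads.

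The names in the annotation did not separate these sequences. Sequences named both oar-mir-30a and oar-mir-30d held 21035 of the 34335 CON family reads, 33300 of 57740 for OVER and 31845 of 56353 for RES. Nearly all of their 5′ arm reads lay within 1 base of both the a and the d sequence, 99.98% in CON, 99.96% in OVER and 99.97% in RES. By bases 12 and 13 these doubly named reads could be told apart: a letters were carried by 45.9% (CON), 52.8% (OVER) and 48.0% (RES), and 53.99%, 46.7% and 51.9% carried d letters. Sequences named oar-mir-30a alone were mostly neither, since the e letters made up 71.7% of their CON reads, 56.3% of their OVER reads and 71.6% of their RES reads. Sequences named oar-mir-30d alone carried d letters in 99.3%, 97.7% and 99.3% of reads. Those named oar-mir-30b alone carried b letters in 99.9% of CON reads, 99.9% of OVER reads and all RES reads. Because the b sequence was itself read from sequences with that name alone, this last agreement was largely set in advance. Placing reads by letters accounted for 99.94% of family reads for CON, 99.7% for OVER and 99.9% for RES. Values for a, b, c, d and e below are therefore by letters unless an ovine name is given.

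The libraries differed in size and in the length of their RNA, which bears on every ratio between them. They held 8287937 to 13160116 reads, of which 839260 (CON), 1380832 (OVER) and 1528187 (RES) were annotated as miRNA. Short reads of 15 to 20 nt were 5.98% of the CON library, 10.3% of RES and 29.6% of OVER, and within miRNA reads 6.75%, 9.17% and 9.98%. Of the marker miRNAs listed for other cells, the 3 miR-200 names of duct epithelium, oar-mir-200c, oar-mir-200b and oar-mir-200a, each read counted once, together held 0.491% of miRNA reads for CON, 0.538% for OVER and 0.0989% for RES. The blood cell miRNA oar-mir-150 had 12, 10 and 37 reads. The other 10 listed markers, which include the germ cell miRNAs miR-34c, miR-34b and miR-449a, have no ovine name in the tables, so no value is given for them and the label sperm could not be checked by name. The part of read length and of epithelial RNA in the results on miR-30 was not tested.

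As a whole the family took a similar share of the miRNA reads in the 3 libraries. It held 4.09% of miRNA reads for CON (4.05 to 4.13%), 4.18% for OVER (4.15 to 4.22%) and 3.69% for RES (3.66 to 3.72%). The OVER share was 1.02 times that of CON, and the RES share was 0.901 times that of CON. Relative to all reads, on the RPM scale that gives every library the same total, the family stood at 3439 for CON, 6967 for OVER and 4282 for RES. The miRNA class as a whole was a larger part of the OVER library. RPM put the family 2.03-fold above CON in OVER and 1.25-fold above CON in RES. Under TMM scaling (edgeR) and DESeq2 size factors the log2 ratio of OVER to CON was instead below 0, at -0.23 and -0.26, and that of RES to CON was above 0, at 0.19 and 0.23. The direction of the family total thus depended on the scaling. Over all miRNA names with at least 100 reads in the 2 libraries compared, the median log2 ratio of OVER to CON was 0.29 by share of miRNA reads, 1.28 by RPM, 0.03 by TMM and -0.01 by DESeq2 size factors. For RES to CON those medians were -0.32, 0.15, 0.02 and 0.06.

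Within the family, whose total was similar by share of miRNA reads only, the members differed. The miR-30b sequence made up 2.77% of the family's 5′ arm reads for CON (2.60 to 2.95%), 14.2% for OVER (13.9 to 14.5%) and 5.07% for RES (4.89 to 5.25%). The miR-30d sequence made up 47.1%, 36.3% and 45.9%. The miR-30a sequence held 33.3%, 36.6% and 32.3%, so in OVER a and d were about equally common. The miR-30e sequence held 14.6% for CON, 9.44% for OVER and 14.1% for RES. The miR-30c sequence, the rarest member in every library, held 2.28%, 3.47% and 2.73%. RES lay close to CON for a, d and e, and the OVER interval overlapped neither of the others for any member.

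**Figure D1:**
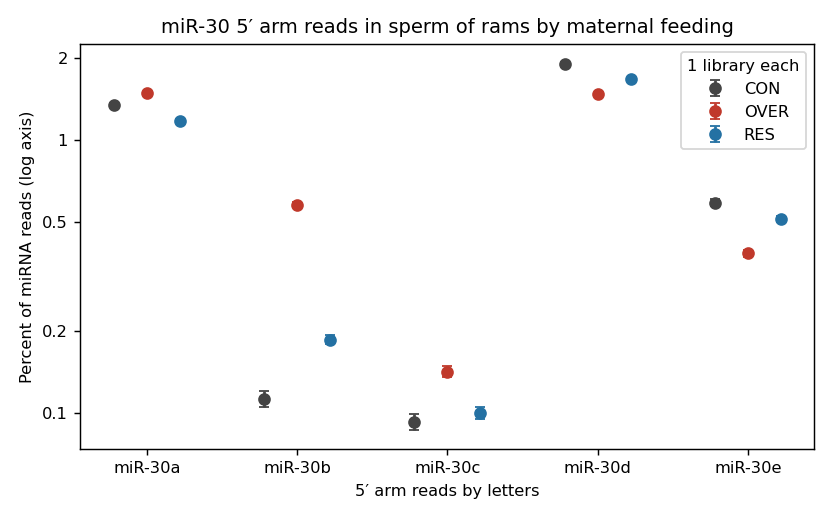
Share of all miRNA reads (percent, log axis) held by the 5′ arm reads of each member by letters, 1 point for each library with its exact 95% interval for counting error. The miR-30b points run from 0.112% in CON through 0.185% in RES to 0.579% in OVER, whereas by this share miR-30d and miR-30e are lowest in OVER; by RPM every member was highest in OVER.

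oar-mir-30b had 959 reads for CON, 8206 for OVER and 2879 for RES. These were 0.114% of miRNA reads for CON (0.107 to 0.122%), 0.594% for OVER (0.582 to 0.607%) and 0.188% for RES (0.182 to 0.195%). OVER was highest and CON lowest, and none of the 3 intervals overlapped. OVER exceeded CON 5.20-fold in this share, a log2 ratio of 2.38 (2.28 to 2.48). In RES it was 1.65-fold higher than in CON, a log2 ratio of 0.72 (0.62 to 0.83), and OVER was 3.15-fold above RES. Among 76 miRNA names compared between OVER and CON, oar-mir-30b ranked 1st by this ratio, and it ranked 2nd of 74 between RES and CON. With every name of 1 read or more, oar-mir-30b ranked 2nd of 104 and 6th of 101. On the RPM scale it stood at 96.1 in CON, 990.1 in OVER and 218.8 in RES. RPM therefore put it 10.3-fold above CON in OVER and 2.28-fold above CON in RES. The RES to CON log2 ratio of oar-mir-30b was past 2-fold under TMM (1.06) and DESeq2 size factors (1.10) as well, and the OVER to RES log2 ratio was just under 2-fold with DESeq2 size factors (0.98).

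Of the 4 names, oar-mir-30b was the 1 at least 2-fold higher by share in OVER than in CON, where 15 of 76 names, 19.7%, were. Against these 15 higher names 4 were lower, and with TMM 8 were higher and 7 lower, oar-mir-30b among the 8. Between RES and CON 0 of 4 names were 2-fold apart by share, and 19 of 74 names, 25.7%, were at least 2-fold apart either way, all of them lower in RES. With TMM 2 of the 74 were higher in RES, oar-mir-30b among them, and 14 were lower. From RES to OVER oar-mir-30b was again the 1 of 4 at least 2-fold higher, against 29 of 80 names, 36.2%, and with TMM 15 of 80. The lower names there numbered 4, and 7 with TMM. By RPM 2 of the 4 names, oar-mir-30b and oar-mir-30c, were at least 2-fold higher in OVER than in CON, against 49 of 76 names, 64.5%. These shares over all names are the background for a group of 4, and 1 of 4 is near the 19.7%. The rank of oar-mir-30b is a description with no test.

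**Figure D2:**
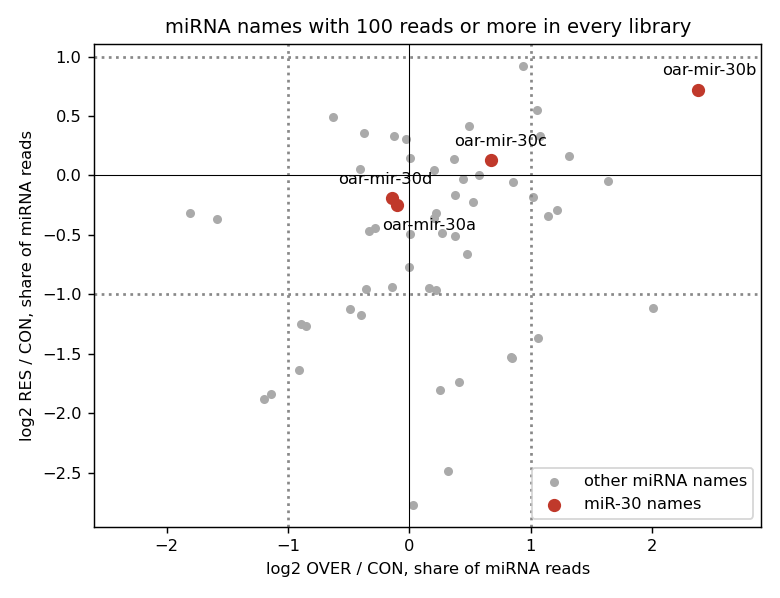
Each point is a miRNA name with at least 100 reads in every library, placed by its log2 ratio of OVER to CON (x axis) and of RES to CON (y axis) in shares of miRNA reads. Dotted lines mark 2-fold; oar-mir-30b lies at 2.38 and 0.72, at the far right, while oar-mir-30a and oar-mir-30d lie next to each other near -0.1 and -0.2.

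oar-mir-30c, whose hairpin gene lies inside NFYC, a gene for a subunit of the transcription factor NF-Y, was a rare member. Its share of miRNA reads was 0.0927% for CON (0.0863 to 0.0994%), 0.147% for OVER (0.141 to 0.154%) and 0.101% for RES (0.0962 to 0.106%). The OVER interval lay above both others, and those of CON and RES overlapped. By share it stood 1.59-fold above CON in OVER and 1.09-fold above CON in RES. Against RES the log2 ratio of OVER was 0.54 by share and turned to -0.06 with TMM and -0.13 with DESeq2 size factors.

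The abundant names differed little by share. Counting every read that carried the name, oar-mir-30a held 3.33% of miRNA reads for CON, 3.09% for OVER and 2.80% for RES, and oar-mir-30d held 3.06%, 2.77% and 2.68%. By RPM both were instead higher in OVER than in CON, 1.84-fold and 1.79-fold. They ranked 5th and 6th of all names in each of the 3 libraries, whereas oar-mir-30b ranked 30th for CON, 16th for OVER and 21st for RES, and oar-mir-30c ranked 35th, 29th and 26th. Because 75.3% of oar-mir-30a reads for CON, 77.9% for OVER and 74.4% for RES also carried another name of the family, these 2 values are largely the same reads. In RefSeq the miR-30a hairpin lies within LOC114116445, a long non-coding gene, and that of miR-30d within no other gene. Split by letters, the members came apart. The a sequence held 1.35% of miRNA reads for CON, 1.49% for OVER and 1.18% for RES. The d sequence held 1.91%, 1.48% and 1.68%. From CON to OVER the share of the a sequence was 1.11-fold higher and that of the d sequence 1.29-fold lower, with the log2 ratios at 0.15 (0.11 to 0.18) and -0.37 (-0.40 to -0.34). By RPM both were higher in OVER, 2.20-fold and 1.54-fold, and with TMM both were lower, at -0.11 and -0.63.

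The e sequence, named only as oar-mir-30a in the annotation, held 0.590% of miRNA reads for CON (0.574 to 0.607%), 0.384% for OVER (0.374 to 0.395%) and 0.514% for RES (0.503 to 0.526%). It was lowest in OVER, 1.54-fold below CON by share, and the 3 intervals did not overlap. By RPM the order turned, with 496 for CON, 641 for OVER and 597 for RES. Between RES and CON the shares of a, d and e were lower by nearly the same factor, with ratios of 0.876, 0.880 and 0.871, but by RPM they were higher by 1.21-fold, 1.22-fold and 1.20-fold, and TMM and DESeq2 size factors also put them above CON. The share of b was 1.65 times that of CON and the share of c 1.08 times.

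Ratios between members within a library do not depend on any scaling. For every 100 reads of miR-30d there were 5.89 reads of miR-30b in CON (941 against 15989 reads), 39.2 in OVER (8001 against 20417) and 11.1 in RES (2831 against 25609). OVER thus exceeded CON 6.66-fold in this ratio, and RES exceeded CON 1.88-fold. In RefSeq genes (assembly ARS-UI_Ramb_v3.0) the gene nearest to MIR30D is MIR30B, while the gene nearest to MIR30B is LOC114116349. Against miR-30a, miR-30b in OVER was at 4.67 times its CON ratio, and against miR-30c, the sequence most like it, at 3.38 times. The ratio of a to d was 0.706 for CON, 1.01 for OVER and 0.704 for RES, and the CON and RES intervals overlapped. That overlap was between reads of all lengths together. Among 24 nt reads the ratio of a to d was 1.60 for CON (1.52 to 1.68), 2.68 for OVER (2.54 to 2.82) and 2.66 for RES (2.53 to 2.78), so that RES stood with OVER. At 23 nt it was 1.04, 1.97 and 1.33, and at 20 nt 0.219, 0.368 and 0.368, with RES above CON at both lengths. At 22 nt RES, at 0.378, was below CON, at 0.434, and OVER stood at 0.717. At 19 and 21 nt the intervals of CON and RES overlapped. The OVER ratio lay above the CON ratio, with intervals apart, at each length from 19 to 24 nt. The ratio of e to d, over all lengths, was 0.991 times the CON ratio in RES and 0.839 times in OVER.

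The ratio of b to d was also taken among reads of 1 length, a comparison chosen after the data were seen. The part of read length in this ratio was not tested. At 22 nt, the commonest length of both, there were 6.36 reads of miR-30b per 100 of miR-30d for CON, 44.6 for OVER and 10.8 for RES. At 21 nt the values were 16.8, 81.2 and 26.6, and at 23 nt they were 1.45, 10.8 and 3.35. The OVER ratio was 7.01-fold the CON ratio at 22 nt, 4.83-fold at 21 nt and 7.47-fold at 23 nt. At 24 nt, where b had 21 to 71 reads, OVER stood at 3.28 and RES at 2.98, with overlapping intervals, and CON at 0.792. OVER was above CON within each of these lengths. At 20 nt, where b had 4 to 47 reads, the intervals of OVER and CON overlapped.

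**Figure D3:**
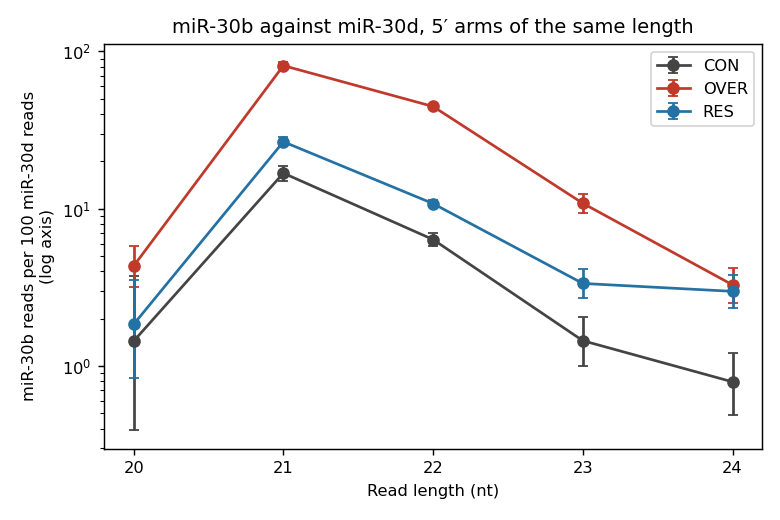
Number of miR-30b reads for every 100 miR-30d reads (log axis) among 5′ arm reads of the same length, from 20 to 24 nt, for each library, with exact 95% intervals for counting error. OVER lies above CON at every length plotted, though with overlapping intervals at 20 nt, with 44.6 against 6.36 at 22 nt, and meets RES at 24 nt.

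The single sequences behind miR-30b differed in the same order. Its commonest form of 22 nt, printed above, had 464 reads for CON, 3971 for OVER and 1464 for RES. The form of 21 nt, without the last base, had 385, 3092 and 1074 reads. All 3 libraries thus held the 22 nt form as the leading one. Reads of 22 nt made up 51.9% of the b reads for CON, 56.0% for OVER and 54.6% for RES, and 99.8%, 99.8% and 99.6% of b reads started at base 1. Reads of 23 nt or longer made up 5.74% of b for CON (4.34 to 7.42%), 3.67% for OVER (3.27 to 4.11%) and 5.90% for RES (5.06 to 6.83%), so the intervals of OVER and CON lay apart.

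Other members had their own characteristic length. The c reads peaked at 23 nt, with 79.9% for CON, 61.0% for OVER and 78.5% for RES. The e reads peaked at 24 nt with 79.0%, 70.4% and 78.4%, and d at 22 nt with 48.0%, 49.2% and 56.0%. Lengths and starts of e, here and below, cover sequences with an ovine name only. Of all miRNA reads with the e letters, 14.5% for CON, 17.0% for OVER and 13.3% for RES had no such name. The a reads were split between lengths. In CON 37.6% of them had 24 nt and 29.5% had 22 nt, in RES 35.1% and 30.1%, and in OVER 26.2% and 35.0%, so the 24 nt form led for CON and RES and the 22 nt form for OVER. Reads of 23 nt or longer were a smaller share in OVER than in CON for all 5 members, namely a (60.9% against 47.9%), b (5.74% against 3.67%), c (92.4% against 67.6%), d (32.2% against 20.9%) and e (92.4% against 84.5%). The whole OVER library also had more short reads, as given above. Within miRNA reads, those of 15 to 20 nt were 6.75% for CON, 9.98% for OVER and 9.17% for RES. The part of library read length in the lengths of the members was not tested. In RES the long reads of a, c and e stood at 57.8%, 85.3% and 90.8%, but those of d, at 21.3%, were close to OVER.

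**Figure D4:**
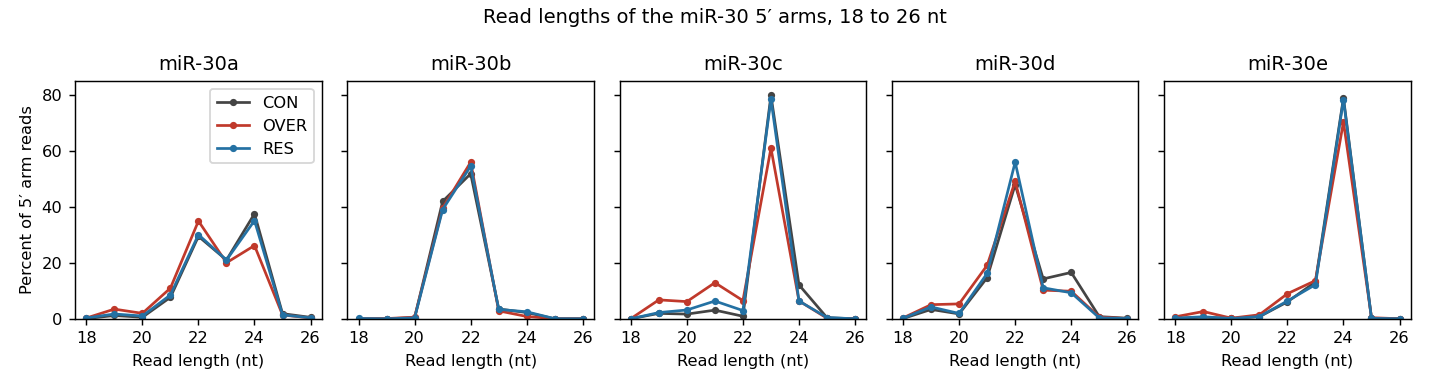
Read lengths of the 5′ arm of each member (x axis, 18 to 26 nt) as percent of that member's 5′ arm reads (y axis), 1 line for each library. The peaks stand at 22 nt for b and d, 23 nt for c and 24 nt for e, and miR-30a has peaks at 22 nt and 24 nt whose order changes in OVER.

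The start of a miRNA sets its seed, and the members differed in how fixed it was. Reads of b, c and d started at base 1 in 99.6% or more of cases in every library. For a this share was 92.4% for CON, 91.3% for OVER and 91.1% for RES, and for e it was 88.0%, 84.99% and 87.5%. Most of the others began 1 or 2 bases later. Of e reads 9.57% for CON, 9.40% for OVER and 8.47% for RES began at base 2. Of a reads 4.64%, 4.53% and 4.78% did so, and 2.74%, 3.71% and 3.63% began at base 3. The commonest such sequences are printed to show the shifted seed, again in capitals:
miR-30a from base 2: gTAAACATcctcgactggaagct
miR-30a from base 3: tAAACATCctcgactggaagct
miR-30e from base 2: gTAAACATccttgactggaagct
Over the family's 5′ arm reads, 4.22% for CON, 4.32% for OVER and 4.36% for RES carried a seed shifted by 1 or 2 bases. These 3 intervals overlapped, but the value mixes members whose shares of the family differed between the libraries. For e alone, reads from base 3 made up 2.40% for CON (1.99 to 2.87%), 4.35% for OVER (3.82 to 4.93%) and 3.18% for RES (2.80 to 3.59%), with the intervals of CON and OVER apart.

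The 3′ ends of miR-30d were mixed. Many of its reads ended in an A where the usual sequence has another base, and the leading one differed by G22A:
miR-30d ending in G: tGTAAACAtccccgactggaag
miR-30d ending in A: tgtaaacatccccgactggaaA
In the first of these the capitals mark the seed, and in the second the changed last base. The form ending in A had 3552 reads for CON, 3262 for OVER and 7555 for RES, or 22.2%, 15.98% and 29.5% of the d reads. The form ending in G had 3815, 6359 and 6256 reads. RES was thus the library in which the A form outnumbered the G form. Such sequences, 2 bases from the a sequence, were named oar-mir-30d alone, and this 1 sequence made up 76.1% of all reads with that name alone for CON, 65.5% for OVER and 82.5% for RES. Counts of the name oar-mir-30d alone are therefore mainly counts of this end, and their share was 1.08 times that of CON in RES and 0.649 times in OVER.

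Over all d reads that followed the usual sequence through its first 19 bases, 23.9% in CON (23.2 to 24.5%), 18.4% in OVER (17.8 to 18.9%) and 31.1% in RES (30.5 to 31.6%) ended in A off the usual letters. The corresponding shares for a were lower, at 8.54%, 8.66% and 10.6%. For b they were 1.40%, 1.61% and 1.36%, and for c 1.73%, 3.65% and 1.31%. RES was highest for a and d, whereas for b the 3 intervals overlapped. Ends in T off the usual letters made up 2.73%, 2.87% and 2.65% of d reads. An A added after base 21 and a change at base 22 give the same letters, and the tables cannot tell them apart. The e reads could not be judged in this way from the named sequences, which held 0 such ends in 4350 CON reads. An e sequence with a further change is 2 bases from the a sequence, and such sequences carried no ovine name. With the unnamed sequences added, 2.44% of e reads for CON, 2.999% for OVER and 2.72% for RES ended in A, below the 26.5%, 20.2% and 33.4% found for d when counted the same way.

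**Figure D5:**
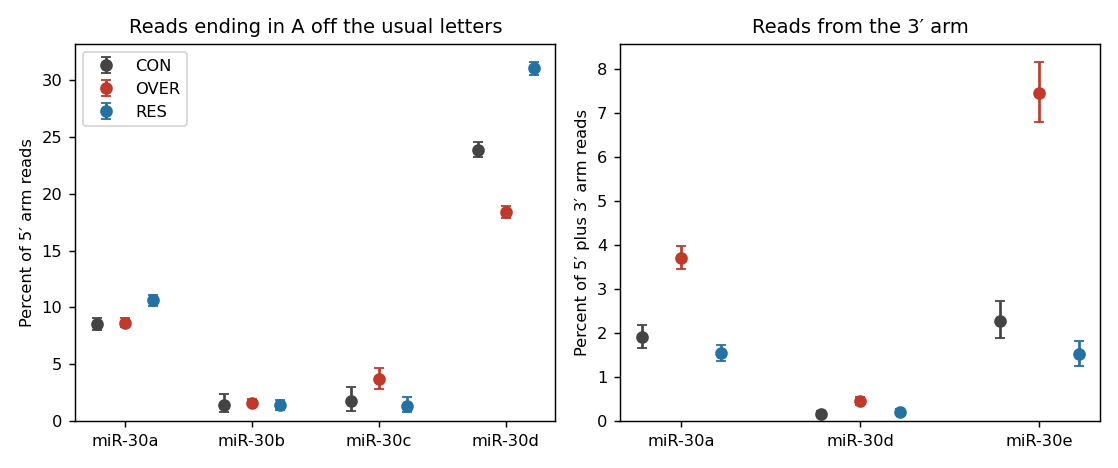
Left, percent of 5′ arm reads ending in A where the usual sequence has another base, for a, b, c and d. Only named reads that follow the usual sequence through its first 19 bases are counted there. Right, percent of the reads of both arms that come from the 3′ arm, for a, d and e. Points are libraries with exact 95% intervals for counting error. miR-30d in RES reaches 31.1% on the left, and OVER is highest for each member drawn on the right.

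The 3′ arm was the minor arm in every library and had its largest share in OVER. It made up 1.06% of placed family reads for CON (363 reads), 2.35% for OVER (1357 reads) and 0.816% for RES (460 reads). For a the share was 1.91% for CON (1.67 to 2.18%), 3.71% for OVER (3.46 to 3.98%) and 1.54% for RES (1.37 to 1.73%). For e it was 2.27% (1.88 to 2.72%), 7.46% (6.79 to 8.17%) and 1.52% (1.26 to 1.81%). For d, with 25, 93 and 54 reads of the 3′ arm, it was 0.156%, 0.453% and 0.210%. The OVER interval lay above both others for each of these members. Reads of the 3′ arm are shorter than the long a and e forms. Among reads of 20 to 22 nt, a range chosen after the data were seen, the shares were 4.36%, 6.15% and 3.24% for a. For e they were 22.3%, 38.6% and 15.7%. This range kept few e reads of the 5′ arm, 342 of 4955 for CON, 564 of 5309 for OVER and 571 of 7861 for RES. It kept most e reads of the 3′ arm, 98 of 115, 354 of 428 and 106 of 121. The level of the e shares is therefore set largely by the range. OVER was highest for both a and e, and the part of read length was not tested.

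A further difference from a usual sequence stood out by its frequency. Among c reads, T9C occurred in 8.90% for CON (69 reads), 9.12% for OVER (178 reads) and 9.05% for RES (138 reads). The commonest such sequence, with the seed in capitals, was this:
miR-30c with T9C: tGTAAACAccctacactctcagc
The 3 shares differed by less than their intervals. These reads are counted with c because the c sequence is the nearest. Whether they come from the oar-mir-30c gene or from another gene was not tested. The next most frequent change within the first 18 bases of a, b, c or d was C11T in a, with a mean of 0.583% over the libraries. The e reads could not be judged here, since e sequences with a further change carried no ovine name.

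Among the 52 names outside the family with at least 100 reads in every library, the 3 nearest to oar-mir-30b in the plane of both log2 ratios were oar-mir-152, oar-mir-22 and oar-mir-3958, at distances of 1.07, 1.20 and 1.34. None was close, since oar-mir-152, the nearest, had log2 ratios of 1.63 and -0.05 against 2.38 and 0.72. Nearest to oar-mir-30c were oar-mir-29a, oar-mir-218a and oar-mir-19b, at 0.15, 0.26 and 0.28. For oar-mir-30a they were oar-mir-10b, oar-mir-17 and oar-mir-10a, at 0.27, 0.27 and 0.32, and for oar-mir-30d the same names at 0.29, 0.34 and 0.34 with oar-mir-17 last. These positions rest on 3 libraries.

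Other broadly expressed miRNA families are given for comparison, by share of miRNA reads. Of 20 names of the let-7, miR-26, miR-29, miR-15/16, miR-103, miR-181 and miR-17-92 groups compared between RES and CON, 11 were at least 2-fold lower and 0 higher, with a median log2 ratio of -1.15, where all 74 names had a median of -0.32. The 4 miR-30 names had a median of -0.03 there, and 0 of them were 2-fold apart. Between OVER and CON 2 of those 20 names were at least 2-fold higher and 3 lower, with a median of -0.05, and the median of the 4 miR-30 names was 0.28. Names that share reads are not separate units in these counts and medians. In CON the 22 names of the groups held 83598 reads by name but 58031 distinct reads. The 4 miR-30 names held 55387 and 34335.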

How the data were processed

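Per the labels' protocols, sperm RNA was extracted with TRIzol after somatic cell lysis, size-selected, made into libraries with a NEBNext small RNA kit and sequenced on an Illumina NovaSeq. Per the file headers, the deposited tables give each distinct sequence with its length, its count of reads, a genome match and an annotation. These deposited counts are raw whole numbers. The tool named in the submitters' processing notes is edgeR. How reads were aligned and annotated, and on which build, is not given in the sources used here.

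Within each diet the 3 tables held the same sequences, reads and genome matches (annotation terms differed in at most 3 rows, none of the family), so the designed tests between replicates could not be made. Members, lists and rules were chosen with earlier results of these data known. The named set was all members and sets of names, for each arm the commonest sequences (those with changed starts, ends or bases were picked after their values were seen), and the 3 names nearest to each member by Euclidean distance. Shares are percentages of reads annotated as miRNA, and a read with several names counts in full for each. The usual 5′ arm sequences were built from reads that begin with 11 anchor bases. Bases 12 and 13 sorted those of a, d and e, and the deposited names alone sorted those of b and c. Each read was then placed on the usual sequence with the fewest mismatches, at most 2 in the first 19 bases, with shifted starts allowed. A usual sequence takes the commonest base at each position and stops where under 5% of reads go on. Intervals of ratios treat the 2 counts as an exact binomial draw. Counts of 0 were replaced by 3 reads, which is 0.228 to 0.362 RPM. The ratio calculation was tested on simulated data. Comparisons within 1 read length or a narrow range of lengths, and those with unnamed sequences added, were chosen after seeing the data. Called means at least 2-fold apart among names whose reads in the 2 libraries sum to 100 or more. RefSeq served only for names and neighbours, and 105 of 105 names were found. The scalings tried were RPM, TMM (edgeR 4.0.16) and DESeq2 1.42.0 size factors. Python 3.11.15 with pandas 2.3.3 and scipy 1.17.1, and R 4.3.3, were used.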

Additional observations from a re-analysis of the deposited data

Results flagged for a closer look

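Reads with the letters of the family also lay in sequences that carried no family name and were left out of the values above. Sequences annotated as miRNA without any ovine name held reads with the e letters, 839 for CON, 1089 for OVER and 1206 for RES, more than the 3 reads that a count of 0 allows. With them added, 14.5% of all CON reads of e, 17.0% of those of OVER and 13.3% of those of RES had no ovine name, and the e share of OVER stayed 1.49-fold below CON. Sequences with no annotation and no genome match held reads with the d letters too, 885 of them for CON, 675 for OVER and 1594 for RES.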

How the results depend on the processing

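No paired analysis was possible because the 3 tables of a diet hold the same sequences and reads, and leaving out any of them gives the same values. Arm calls against reference hairpins were not run, since no such reference was used here. Changes of value below are log2 ratios in the order OVER to CON, RES to CON and OVER to RES, and the cause of each move was not tested beyond the change of divisor or reads that defines it. The family total, 0.03, -0.15 and 0.18 by share of miRNA reads, was 1.02, 0.32 and 0.70 by RPM, -0.23, 0.19 and -0.42 by TMM, -0.26, 0.23 and -0.49 by DESeq2 size factors, -0.0129, -0.12 and 0.11 at 20 to 25 nt, -0.0297, -0.0585 and 0.0288 with ovine-named miRNA reads as the total, and 0.0028, -0.0899 and 0.0927 without sequences of several RNA classes. The number of names at least 2-fold higher, 15, 0 and 29, was 49, 3 and 52 by RPM, 8, 2 and 15 by TMM, and 7, 2 and 14 by DESeq2 size factors. With every name of 1 read or more, 3 names were higher in RES than in CON. The number at least 2-fold lower, 4 for OVER to CON and 4 for OVER to RES, was 0 and 1 by RPM, 7 and 7 by TMM, 7 and 8 by DESeq2 size factors, and 8 for OVER to CON with every name. The share of higher against lower names thus moved with the scaling. The 3′ arm share of the family at 20 to 22 nt, an alternative chosen after seeing the data, was 1.96% (CON), 3.12% (OVER) and 1.29% (RES). The OVER to CON ratio of oar-mir-30b stayed past 2-fold in all 10 alternatives, from 2.08 to 3.37, and its RES to CON ratio passed 2-fold in 3 of 10, from 0.72 to 1.19. Rare members are limited by depth, since oar-mir-30c rests on 778 reads in CON and the 3′ arm of miR-30d on 25.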
